A study of Homo sapiens with 14 samples.

Results

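The genes of 10 matricellular and related matrix proteins were followed across 11 RNA libraries of SH-EP cells. They are POSTN, SPP1, TNC, THBS1, THBS2, SPARC, TGFBI, FN1, FBLN1 and VCAN, matched by symbol to the Ensembl identifiers of the count table. The list was chosen by name with the lenalidomide responses of POSTN, SPP1 and THBS1 in each line, as log2 changes, already known, so responses to lenalidomide are given below as descriptions without a test. All 10 symbols were found once among the 61533 genes of the count table, and each was among the 16056 genes that passed the filter on low counts. POSTN passed it through its control libraries only, since no SPARK-ON library held more than 4 POSTN counts.

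SH-EP cells are an adherent human neuroblastoma line, established in culture. SPARK-ON n-Myc cells are, per the series design, a single clone that expresses n-Myc below the concentration at which it phase separates, and lenalidomide then brings about phase separation of n-Myc at an unchanged concentration. The n-Myc control cells lack SPARK-ON and show what lenalidomide does by itself. Both lines were given lenalidomide or DMSO, the solvent, which gave 11 libraries: 3 in each group except control cells with lenalidomide, which had 2. No dose or time was read from the labels, and baseline SH-EP cells were not analysed here. Because SPARK-ON cells are 1 clone, SPARK-ON itself and what else sets that clone apart from the control line cannot be told apart.

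Total counts ran from 6614671 in SPARK-ON lenalidomide replicate 3, which stood apart on the second principal component (5.16% of the variance), to 21511684. The first component, with 70.1% of the variance, separated the lines. Of 10 markers of mesenchymal neuroblastoma cells, the state SH-EP is known for, 9 were above 1 CPM (a gene's count relative to the total of its library) in every library. Of 11 adrenergic neuroblastoma markers 8 were below 1 CPM in every library, and PHOX2A, ISL1 and CHGA among them had a count of 0 throughout. The summed level of the mesenchymal markers was 1490 to 1674 CPM in SPARK-ON libraries and 2852 to 2991 CPM in control libraries, and its part in the differences between lines was not tested. VIM and CD44 made up this gap, with 1007 to 1137 CPM against 2275 to 2552 CPM. The other 8 markers, a split chosen after the values were seen, summed to 484 to 538 CPM in SPARK-ON and 439.5 to 577 CPM in control libraries. Among these 8, WWTR1 was lower in SPARK-ON libraries (49 to 55.9 CPM against 119 to 154 CPM). NT5E was higher (72.9 to 99.3 CPM against 29.1 to 42.3 CPM), so overlapping sums do not mean equal levels of each gene. The summed level of the adrenergic markers was 26.3 to 32.3 CPM in SPARK-ON and 18.6 to 20.5 CPM in control libraries, and that of 13 markers of other cell types 24.6 to 33.8 CPM and 16.5 to 20.8 CPM. Their part in the differences was not tested either. GATA2 carried the adrenergic sum, with 20.7 to 25.5 CPM in SPARK-ON and 10.4 to 14.0 CPM in control libraries, and without it the sum was 5 to 8.28 CPM and 6.45 to 8.73 CPM. Among the latter KRT18 took the largest part, with 10.1 to 24.0 CPM, and CD3E, KRT5 and MYH6 had a count of 0 throughout.

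Matricellular proteins are secreted into the extracellular matrix but act less as structural fibres than as signals, by binding integrins and other receptors, collagens, growth factors and proteases. They are abundant in development and wound repair, and many of their genes respond to TGF-beta. Mesenchymal and fibroblast-like cells are a typical source. In neuroblastoma, matrix genes of this kind are known as features of the mesenchymal cell state. Fibronectin (FN1) is a main adhesive protein of newly laid matrix, and versican (VCAN) is a large proteoglycan. Fibulin-1 (FBLN1), periostin (POSTN) and tenascin-C (TNC) are known to bind fibronectin.

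The DNA just upstream of 4 of these genes is shown because POSTN and SPP1 had the largest lenalidomide responses in control cells, and THBS1, SPP1 and FN1 those in SPARK-ON cells apart from POSTN, whose SPARK-ON counts were close to 0. Sequences are from RefSeq on GRCh38.p14, read 5′ to 3′ on the gene's strand, and stop before the start given by RefSeq and before the first exon given by GENCODE 29. They cover chr13:37598845-37599018 (minus strand), chr4:87975464-87975649 (plus strand), chr15:39580829-39581078 (plus strand) and chr2:215436173-215436318 (minus strand). Capitals mark matches, on either strand, to CACGTG (the E-box bound by MYC and MAX), TGANTCA (AP-1), GGAATG (TEAD), GGGCGG (the GC box) or TATAAA.
POSTN: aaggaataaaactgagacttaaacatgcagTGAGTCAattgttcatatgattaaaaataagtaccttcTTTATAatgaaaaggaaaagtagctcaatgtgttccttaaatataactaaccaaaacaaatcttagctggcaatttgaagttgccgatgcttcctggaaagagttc
SPP1: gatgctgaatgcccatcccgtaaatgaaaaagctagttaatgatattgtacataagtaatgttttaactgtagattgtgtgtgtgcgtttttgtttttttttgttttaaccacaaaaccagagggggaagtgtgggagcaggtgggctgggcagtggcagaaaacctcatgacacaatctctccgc
THBS1: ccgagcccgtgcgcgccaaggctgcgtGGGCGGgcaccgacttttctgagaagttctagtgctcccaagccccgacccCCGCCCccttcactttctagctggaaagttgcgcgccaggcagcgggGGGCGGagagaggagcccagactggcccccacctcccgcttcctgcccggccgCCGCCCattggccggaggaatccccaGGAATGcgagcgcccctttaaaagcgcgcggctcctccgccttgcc
FN1: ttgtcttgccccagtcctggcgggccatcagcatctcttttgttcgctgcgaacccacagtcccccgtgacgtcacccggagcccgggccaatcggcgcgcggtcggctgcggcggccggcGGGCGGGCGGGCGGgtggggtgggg
The POSTN stretch is rich in A and T and holds 1 AP-1 match and 1 match to TATAAA. The SPP1 stretch holds no match, whereas that of THBS1 holds 4 GC boxes and 1 TEAD match, and that of FN1 holds GC boxes that overlap each other. In the full RefSeq windows of 300 bases (250 before and 50 after the start), which were found for all 10 genes, CACGTG was in 0 of 10, against 7.26% of 35116 promoters. GGGCGG was in 6 of 10 (45% of all promoters), GGAATG in 3 (THBS1, THBS2 and SPARC; 14% of all), TATAAA in 2 (POSTN and THBS2; 11.5% of all) and TGANTCA in 1 (POSTN; 7.71% of all). The GC content of these windows was lowest for POSTN, at 39%, and highest for FBLN1, at 78%, with a median of 58.7% over all promoters. These matches describe letters and show neither binding nor its absence.

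The lines differed in these genes in both directions. Differences are log2 changes of SPARK-ON over control cells, with their standard error (SE), and gene positions are on GRCh38 from GENCODE 29. Averaged over both treatments, FBLN1, SPP1, TGFBI, FN1 and THBS1 were higher in SPARK-ON than in control cells, and POSTN, VCAN, TNC, SPARC and THBS2 were lower. POSTN passed the filter through control cells alone, which favours a difference, so it is left out of the next count. Each of the other 9 passed edgeR's quasi-likelihood test at an adjusted p (Benjamini-Hochberg, over all genes) below 0.05, 5 as higher and 4 as lower. Over all genes tested 54.1% passed (27.7% higher and 26.4% lower), and 60.3% of genes with a mean of at least 50 CPM, a level that every member but POSTN reached, so a difference between the lines was common. The median size of the difference was 0.71 on the log2 scale over these 9 genes and 0.34 over all genes. For 8 of the 10, 4 higher and 4 lower with POSTN among the latter, no SPARK-ON library overlapped any control library, which held for 37.2% of all genes (18.7% higher and 18.5% lower). Counted with POSTN, 4 of the 10 passed as higher in DMSO alone (21.1% of all genes) and 5 as lower (20.4%), where 41.6% of all genes and 46.2% of those with at least 50 CPM passed. With lenalidomide alone 5 passed as higher (19.7%) and 4 as lower (19.7%), beside 39.4% and 45.7%. THBS1 was the exception in DMSO and THBS2 with lenalidomide. The THBS1 calls in the average and with lenalidomide include its lenalidomide response, known when the genes were listed. They are therefore not independent of that choice. Without overlap were 4 higher and 5 lower genes in DMSO (26.3% and 24.6% of all genes, 50.8% in all) and 5 higher and 4 lower with lenalidomide (30.4% and 29.3%, 59.6% in all). POSTN was among the lower genes in each of these counts, which its entry through control cells favours. Apart from POSTN, the genes that passed as lower in DMSO were TNC, THBS2, SPARC and VCAN. With lenalidomide they were TNC, SPARC and VCAN. With scaling by library size alone THBS2 lost its call in the average, and over all genes 63.2% of the calls were then higher in SPARK-ON cells (5580 against 3246), compared with 51.2% here (4449 against 4241).

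**Figure D1:**
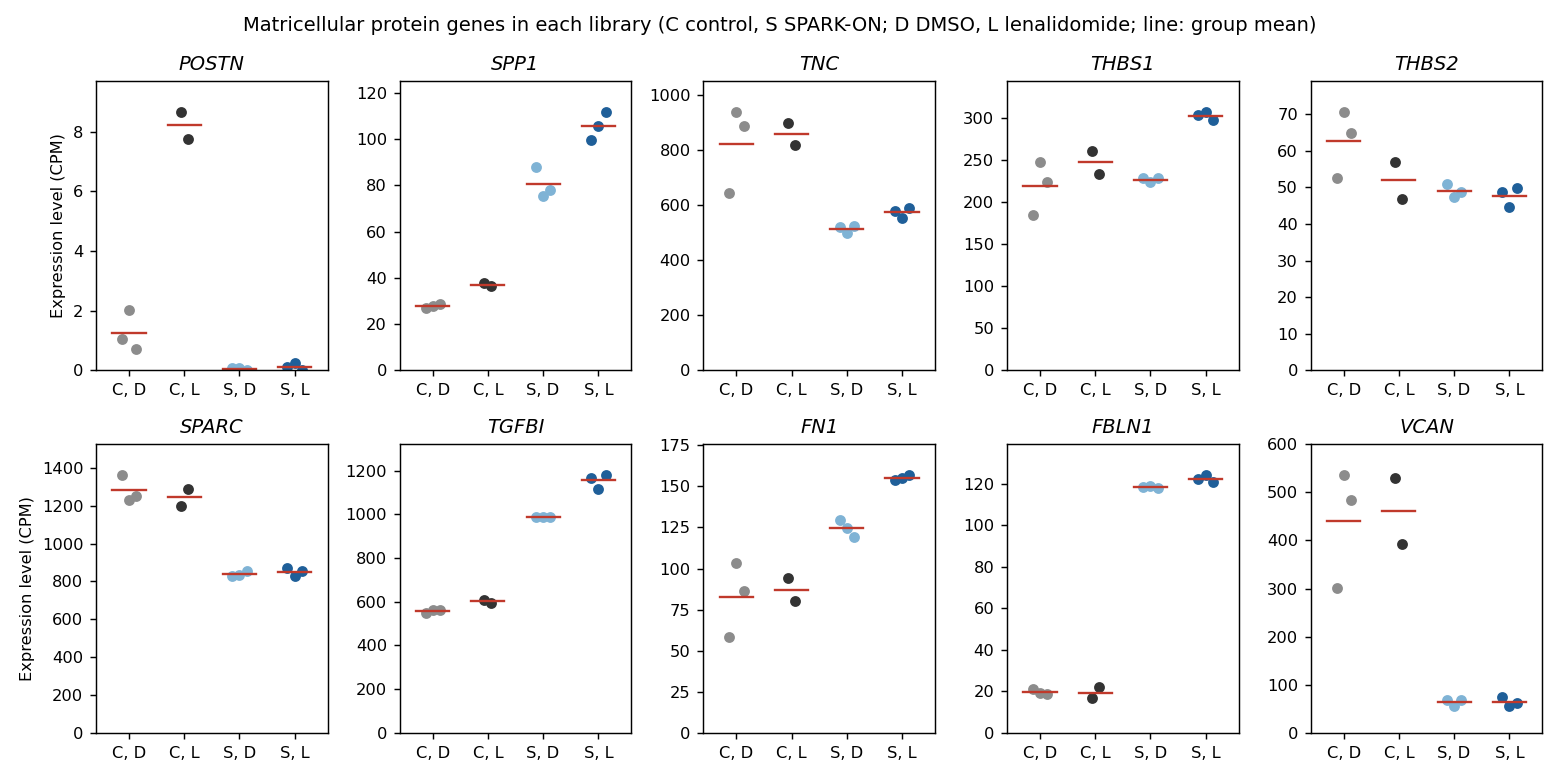
Expression level in CPM (vertical axes, from 0, on a scale of its own for each gene) of the 10 genes in the 11 libraries, with 1 point per library and a red line at the mean of each group. FBLN1, SPP1, TGFBI and FN1 sit higher in all SPARK-ON libraries, POSTN, VCAN, TNC and SPARC higher in all control libraries, and THBS1 and THBS2 overlap between lines.

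POSTN and TGFBI encode related proteins built from fasciclin domains, periostin and TGFBI (also called keratoepithelin), which bind integrins and other matrix proteins. The POSTN (ENSG00000133110.15, chromosome 13, 37562583 to 37598844) level was 1.03, 2.02 and 0.717 CPM in control cells in DMSO and 8.66 and 7.77 CPM in control cells with lenalidomide. The SPARK-ON libraries had 0.06, 0.066 and 0 CPM in DMSO and 0.121, 0.245 and 0 CPM with lenalidomide. SPARK-ON libraries held between 0 and 4 counts of POSTN each, where control libraries held 15 to 146. A library with a count of 0 allowed up to 0.153 CPM (SPARK-ON DMSO replicate 3) or 0.441 CPM (SPARK-ON lenalidomide replicate 3) at 3 counts, for counting error only. In DMSO 68 counts in control cells stood against 2 in SPARK-ON cells, a ratio per scaled depth of 31.1 (exact 95% counting interval 8.29 to 262). With lenalidomide 283 stood against 6, a ratio of 54 (24.5 to 149). The fitted POSTN difference, -5.22, is given without a test, and at such counts its size depends on the prior count of the fit. In bulk RNA, fewer cells that express a gene and less of its RNA per cell cannot be told apart.

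The TGFBI (ENSG00000120708.17, chromosome 5, 136028895 to 136063818) level was 549, 561 and 561 CPM in control cells in DMSO and 609 and 595 CPM in control cells with lenalidomide. SPARK-ON cells had TGFBI levels of 987, 989 and 987 CPM in DMSO and of 1167, 1118 and 1181 CPM with lenalidomide. Every SPARK-ON library was above every control library, and within each line every lenalidomide library was above every DMSO library. The difference between lines was 0.88 (SE 0.0432, adjusted p = 5.75e-12), opposite in direction to that of POSTN.

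SPP1 encodes osteopontin, a phosphoprotein that binds integrins and CD44. The SPP1 (ENSG00000118785.15, chromosome 4, 87975650 to 87983426) level was 27, 27.9 and 28.5 CPM in control cells in DMSO and 37.6 and 36.4 CPM in control cells with lenalidomide. In SPARK-ON cells SPP1 stood at 87.8, 75.6 and 78.1 CPM in DMSO and at 99.8, 106 and 112 CPM with lenalidomide. The groups did not overlap, and the order was control DMSO, control lenalidomide, SPARK-ON DMSO and SPARK-ON lenalidomide from lowest to highest. The SPP1 difference between lines was 1.52 (SE 0.0639, adjusted p = 6.71e-13), and it was 1.53 in DMSO and 1.51 with lenalidomide.

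The thrombospondins THBS1 and THBS2 bind CD36, CD47 and integrins and restrain blood vessel growth, and thrombospondin-1 is known to release TGF-beta from its latent form. The THBS1 (ENSG00000137801.11, chromosome 15, 39581079 to 39599466) level was 185, 248 and 224 CPM in control cells in DMSO and 261 and 234 CPM in control cells with lenalidomide. The SPARK-ON libraries had 228, 224 and 228 CPM in DMSO and 304, 307 and 297 CPM with lenalidomide. In DMSO the lines overlapped, with a THBS1 difference of 0.05 (95% interval -0.13 to 0.23, adjusted p = 0.681). With lenalidomide each SPARK-ON library was above both control libraries, by 0.29 (SE 0.0972, adjusted p = 0.0226). Omission of SPARK-ON lenalidomide replicate 1 or 2 or control lenalidomide replicate 2 ended that call, with adjusted p from 0.0581 to 0.2. The average over treatments was 0.17 (SE 0.0649, adjusted p = 0.0326). Both this average and the difference with lenalidomide include the THBS1 response to lenalidomide, which was known when the genes were listed. Their p-values are therefore not independent of that choice. The call in the average was lost in 6 of the 11 fits that left out a library, on omission of SPARK-ON lenalidomide replicate 1 or 2, any SPARK-ON DMSO library or control lenalidomide replicate 2, with adjusted p from 0.0518 to 0.16 in these 6 fits. Without control DMSO replicate 1, the lowest control library for THBS1, the average became 0.11 and the DMSO difference -0.066 (adjusted p = 0.431).

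The THBS2 (ENSG00000186340.17, chromosome 6, 169215780 to 169254044) level was 52.5, 70.6 and 64.9 CPM in control cells in DMSO and 57 and 46.9 CPM in control cells with lenalidomide. SPARK-ON cells had THBS2 levels of 50.9, 47.2 and 48.7 CPM in DMSO and of 48.7, 44.6 and 49.9 CPM with lenalidomide. In DMSO every SPARK-ON library was below every control library, and with lenalidomide the lines overlapped. The THBS2 difference was -0.36 (SE 0.105, adjusted p = 0.011) in DMSO and -0.13 with lenalidomide (95% interval -0.38 to 0.13, adjusted p = 0.438). Averaged, it was -0.24 (SE 0.0796, adjusted p = 0.0164). This call was lost without SPARK-ON lenalidomide replicate 2 (-0.21, adjusted p = 0.051) or control lenalidomide replicate 1 (-0.17, adjusted p = 0.119).

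TNC encodes tenascin-C, a large protein that weakens the adhesion of cells to fibronectin. The TNC (ENSG00000041982.16, chromosome 9, 115019578 to 115118257) level was 646, 939.6 and 888 CPM in control cells in DMSO and 901 and 821 CPM in control cells with lenalidomide. In SPARK-ON cells TNC stood at 521, 498 and 525 CPM in DMSO and at 581, 554 and 588 CPM with lenalidomide. All SPARK-ON libraries were below all control libraries, and the TNC difference was -0.63 (SE 0.0743, adjusted p = 9.99e-07). SPARC, a collagen-binding protein also known as osteonectin, had the highest level of the 10 genes per kilobase of all annotated exons. The SPARC (ENSG00000113140.11, chromosome 5, 151661096 to 151687165) level was 1364, 1231 and 1249 CPM in control cells in DMSO and 1199 and 1290.2 CPM in control cells with lenalidomide. The SPARK-ON libraries had 830.0, 832 and 854 CPM in DMSO and 871, 826 and 854 CPM with lenalidomide. Its groups within a line overlapped, while the lines did not, and the SPARC difference was -0.58 (SE 0.0458, adjusted p = 5.08e-09).

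FN1 encodes fibronectin, the ligand of the integrin of ITGA5 and ITGB1. The FN1 (ENSG00000115414.21, chromosome 2, 215360440 to 215436172) level was 58.3, 104 and 86.6 CPM in control cells in DMSO and 94 and 80.2 CPM in control cells with lenalidomide. SPARK-ON cells had FN1 levels of 129.6, 125 and 119 CPM in DMSO and of 154, 155 and 157 CPM with lenalidomide. Every SPARK-ON library was above every control library, with a difference of 0.71 (SE 0.103, adjusted p = 1.22e-05). FBLN1 encodes fibulin-1, a calcium-binding protein that attaches to fibronectin and versican. The FBLN1 (ENSG00000077942.19, chromosome 22, 45502238 to 45601135) level was 21.2, 19 and 18.9 CPM in control cells in DMSO and 16.9 and 21.9 CPM in control cells with lenalidomide. In SPARK-ON cells FBLN1 stood at 119, 119 and 118 CPM in DMSO and at 122, 124 and 121 CPM with lenalidomide. The FBLN1 difference of 2.62 (SE 0.0719, adjusted p = 1.86e-15), or 6.15-fold, was the widest among the 5 genes higher in SPARK-ON cells, and 5.28% of all genes differed by more.

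VCAN encodes versican, which binds hyaluronan and fills the matrix around migrating cells. The VCAN (ENSG00000038427.16, chromosome 5, 83471465 to 83582303) level was 300.2, 536 and 484 CPM in control cells in DMSO and 530.1 and 393 CPM in control cells with lenalidomide. The SPARK-ON libraries had 68, 55.8 and 68 CPM in DMSO and 74, 56.2 and 61.8 CPM with lenalidomide. All SPARK-ON libraries were below all control libraries, and the VCAN difference was -2.81 (SE 0.128, adjusted p = 2.04e-12). Of all genes 4.83% differed by more than VCAN.

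**Figure D2:**
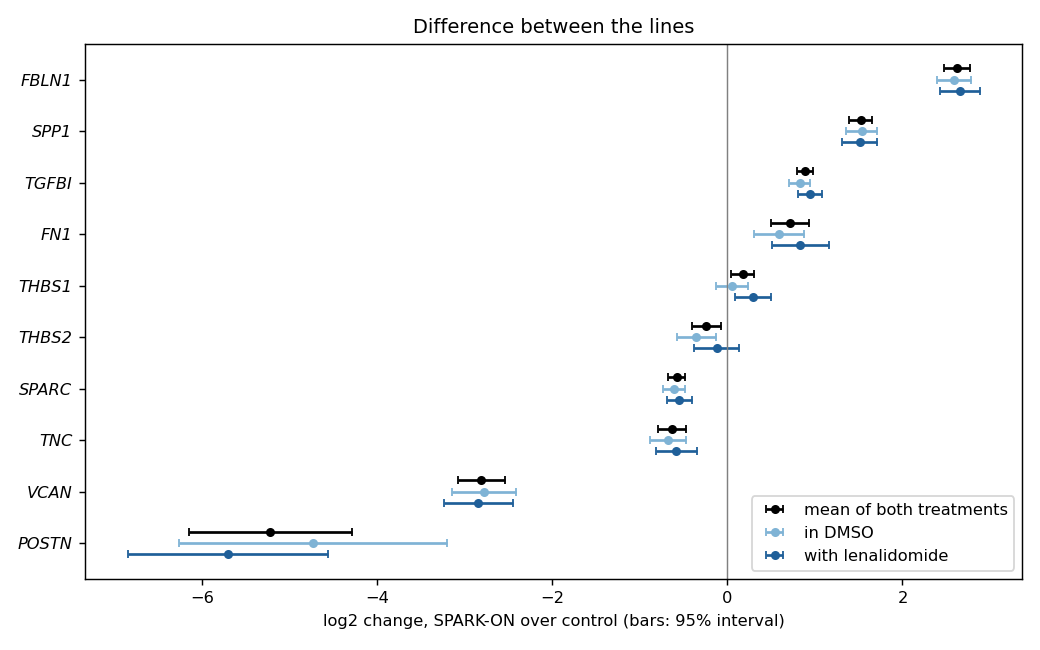
Difference between SPARK-ON and control cells (horizontal axis, log2 change with its 95% interval) for each gene, averaged over both treatments, in DMSO and with lenalidomide. FBLN1 lies farthest to the right at 2.62 and POSTN farthest to the left at -5.22, and the intervals of THBS1 in DMSO and THBS2 with lenalidomide hold 0. The POSTN values depend on the prior count of the fit, and its entry through control cells favours a difference. Its interval is therefore not read as a test.

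Control DMSO replicate 1 had the lowest TNC, THBS1, FN1 and VCAN levels of the 5 control libraries and the highest SPARC level. Without it the difference in DMSO was -0.84 for TNC (from -0.68), 0.38 for FN1 (from 0.59, adjusted p = 0.000369) and -3.00 for VCAN (from -2.78). Without both this library and SPARK-ON lenalidomide replicate 3, an omission chosen after the data were seen, all 10 genes passed in the average, 5 in each direction. POSTN is among these 10, and the filter favours its call. The genes overlap exons of others on the opposite strand: TNC those of DEC1, THBS1 those of FSIP1 and AC037198.2, SPARC those of CLMAT3 and VCAN those of VCAN-AS1. Their summed counts were 38, 253, 0, 42 and 7, against 125121 for TNC, 44492 for THBS1, 192007 for SPARC and 46305 for VCAN, and the sources used here do not say whether counting used strand.

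Per exon length the genes fell in a different order in each line. The length joins all annotated exons of a gene, whichever transcripts the cells use, from 2321 bases for SPP1 to 17315 for FN1. The order between genes depends on this choice, and other lengths were not tried. In control cells in DMSO, SPARC led with a level of 265 ± 14.9 CPM per kilobase of exon (SD, n = 3), followed by TNC with 85.6 ± 16.2 and TGFBI with 71.3 ± 0.881, which overlapped between libraries. VCAN at 29.7 ± 8.36 and THBS1 at 23.9 ± 3.45 CPM per kilobase overlapped as well. Then came SPP1, THBS2, FN1 and FBLN1 without overlap of neighbours, from 12 ± 0.315 down to 2.7 ± 0.175, and POSTN at 0.23 ± 0.125 CPM per kilobase. In SPARK-ON cells in DMSO, SPARC was also first with 174 ± 2.75 CPM per kilobase (SD, n = 3), but TGFBI was the second with 126.5 ± 0.135 and TNC was the third with 53.4 ± 1.51. SPP1 was the fourth with 34.7 ± 2.77, ahead of THBS1 with 24.8 ± 0.284 and FBLN1 with 16.3 ± 0.0552. THBS2 and FN1 overlapped, at 7.63 ± 0.285 and 7.19 ± 0.296 CPM per kilobase. VCAN, the fourth in control cells, was the ninth with 4.31 ± 0.476, and POSTN was last with 0.00769 ± 0.00668. With lenalidomide the order of control cells was the same, and that of SPARK-ON cells differed in that FN1, at 8.96 ± 0.0998 CPM per kilobase, was above THBS2, at 7.44 ± 0.432, without overlap.

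**Figure D3:**
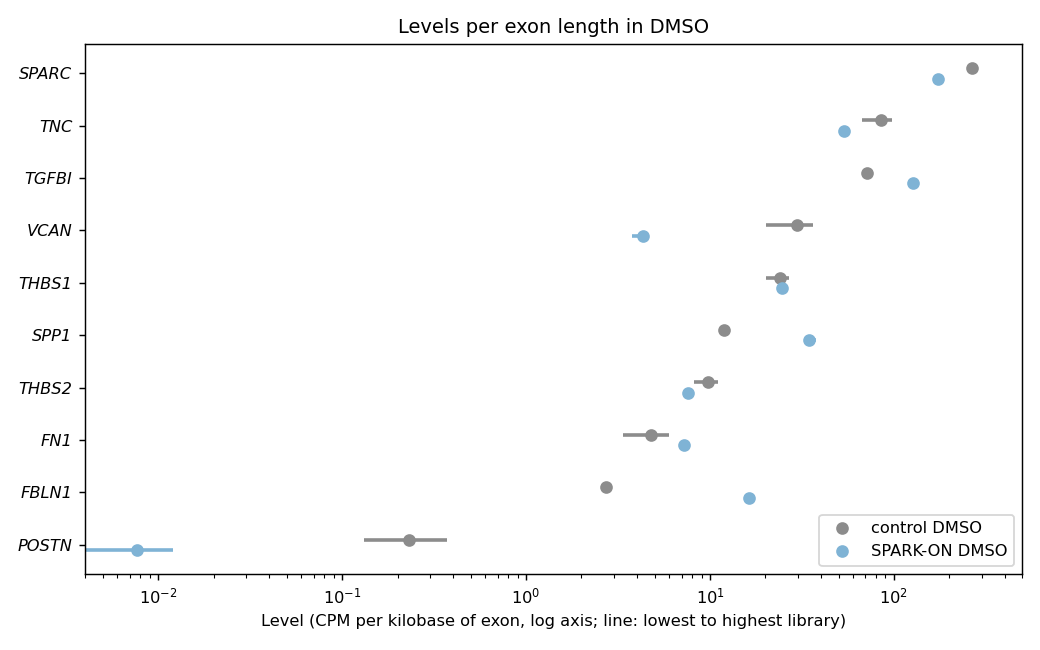
Level of each gene in DMSO in CPM per kilobase of exon (horizontal log axis), with points at group means and lines from the lowest to the highest of 3 libraries (the SPARK-ON line of POSTN reaches 0 and is cut at the axis). The length joins all annotated exons of a gene. By this measure SPARC is highest in both lines, and VCAN, FBLN1 and SPP1 change places between them.

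Lenalidomide against DMSO is the contrast whose results were known when the genes were listed, so what follows is descriptive. In SPARK-ON cells the gene with the widest response apart from POSTN was THBS1, from 227 ± 2.61 CPM (SD, n = 3) in DMSO to 303 ± 4.95 CPM (SD, n = 3) with lenalidomide, a log2 change of 0.42 (SE 0.0866). SPP1 was at 80.5 ± 6.43 CPM (SD, n = 3) and 106 ± 6.01 CPM (SD, n = 3), a log2 change of 0.39 (SE 0.0803). FN1 was at 124.5 ± 5.12 CPM (SD, n = 3) and 155 ± 1.73 CPM (SD, n = 3), a change of 0.32 (SE 0.135), and TGFBI at 988 ± 1.06 CPM (SD, n = 3) and 1155 ± 33.2 CPM (SD, n = 3), a change of 0.23 (SE 0.0564). In all 4 of these genes the 3 lenalidomide libraries were above the 3 DMSO libraries. TNC (change 0.16) and FBLN1 (change 0.047) also did not overlap, so that 6 of 10 genes were higher without overlap and 0 lower, beside 9.62% and 8.17% of all genes. SPARC, VCAN and THBS2 had changes of 0.02, 0.0017 and -0.041 in SPARK-ON cells. POSTN had 2 counts in the 3 DMSO libraries and 6 in the 3 lenalidomide libraries, a ratio of 3.89 (interval 0.695 to 39.4, for counting error only).

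Among control cells POSTN had the widest response, from 1.26 ± 0.682 CPM (SD, n = 3) in DMSO to 8.22 ± 0.631 CPM (SD, n = 2) with lenalidomide. Its 68 counts in 3 libraries and 283 in 2 libraries gave a ratio per scaled depth of 6.75. SPP1 was at 27.8 ± 0.731 CPM (SD, n = 3) and 37 ± 0.861 CPM (SD, n = 2), a log2 change of 0.41 (SE 0.0944). TGFBI was at 557 ± 6.88 CPM (SD, n = 3) and 602 ± 10.2 CPM (SD, n = 2), a change of 0.11 (SE 0.063). These 3 of 10 genes were higher without overlap and 0 lower, beside 7.69% and 6.86% of all genes. THBS1 was at 219 ± 31.6 CPM (SD, n = 3) and 247 ± 18.9 CPM (SD, n = 2), with overlap and a change of 0.17 (SE 0.096). THBS2 had the most negative change, -0.27 (SE 0.118), and the other 5 genes had changes from -0.042 (SPARC) to 0.073 (FN1). Without control DMSO replicate 1, the change with lenalidomide in control cells was 0.063 for THBS1 (from 0.17), -0.091 for TNC (from 0.062), -0.13 for FN1 (from 0.073) and -0.15 for VCAN (from 0.068). THBS2 moved to -0.42 without control lenalidomide replicate 1 and to -0.14 without replicate 2 of that group, and was at -0.18 without control DMSO replicate 2. FBLN1 moved to 0.15 and -0.23 without the same control lenalidomide libraries (from -0.018), and SPARC to -0.10 without the second of them.

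Set side by side, the SPP1 response in SPARK-ON minus that in control cells was -0.021 (SE 0.124). The THBS1 response was larger in SPARK-ON cells by 0.24 (SE 0.13), that of FN1 by 0.25 (SE 0.203), and that of TGFBI by 0.11 (SE 0.0847). POSTN cannot be compared in this way, given 2 and 6 counts in SPARK-ON cells. The spread between replicates (biological coefficient of variation) came to 4.71% in a fit of SPARK-ON cells alone and 12.9% in a fit of control cells alone. The fit used here gave each gene a spread of its own but shared it between the lines, with a common value of 9.4%. Its SEs therefore do not follow this difference between the lines.

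**Figure D4:**
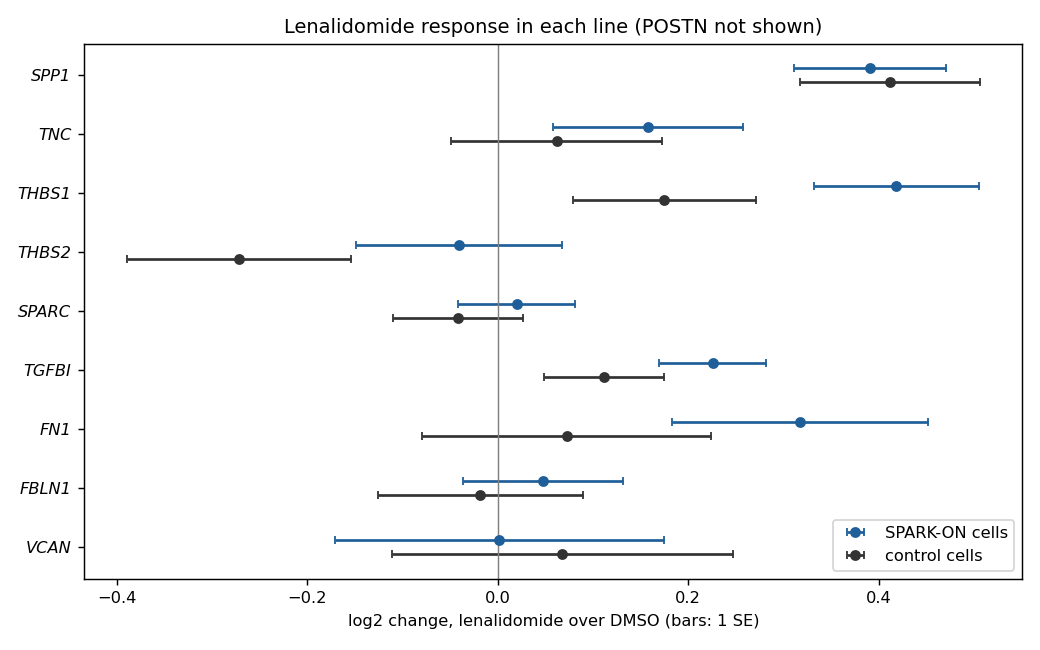
Lenalidomide response (horizontal axis, log2 change over DMSO with 1 SE on each side) in SPARK-ON and control cells for 9 genes, without POSTN because of its low SPARK-ON counts. SPP1 lies near 0.39 in SPARK-ON and 0.41 in control cells, while THBS1 lies at 0.42 and 0.17.

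Of 28 other matricellular genes listed, 15 were abundant enough to test. Averaged over treatments 7 were higher in SPARK-ON cells, 4 were lower and 4 did not pass (median 0.33). Over all genes 27.7% were higher and 26.4% lower. FBLN2, FBLN5 and SPARCL1 passed the filter through SPARK-ON cells only, which favours a higher level in those cells. The median counts them, so it is not read as a shift of the list. Of the other 12 genes 4 were higher and 4 lower. CCN3, which encodes a CCN family regulator of growth and adhesion, was at 29 to 39.4 CPM in SPARK-ON libraries and 1.2 to 1.74 CPM in control libraries, a difference of 4.53 (SE 0.129, adjusted p = 2.65e-15). SPOCK1, the gene of the proteoglycan testican-1, was lower, with 8.04 to 11.2 CPM in SPARK-ON libraries and 69.3 to 112 CPM in control libraries, a difference of -3.30 (SE 0.0925, adjusted p = 2.52e-15). LGALS1, the gene of the sugar-binding protein galectin-1, differed by -0.92 (SE 0.0836, adjusted p = 3.62e-08) and FSTL1, a relative of SPARC, by -0.55 (SE 0.0528, adjusted p = 6.89e-08).

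Of 25 genes of receptors for these proteins 20 were tested, of which 8 were higher in SPARK-ON cells, 9 lower and 3 did not pass (median 0.0026), beside 27.7% and 26.4% of all genes. Of these, 18 did not owe their place to 1 line alone, and 7 of the 18 were higher and 8 lower. PTPRZ1, a receptor phosphatase that binds tenascins, was at 0.132 to 0.46 CPM in SPARK-ON libraries and 14.2 to 22.4 CPM in control libraries. It passed the filter through control cells only, which favours a difference, so its test is not given. The integrin gene ITGA9, whose protein in complex with beta-1 binds TNC and SPP1, was lower in SPARK-ON cells, with a difference of -1.70 (SE 0.111, adjusted p = 3.93e-10), and so was ITGB3, whose protein pairs with alpha-V to bind SPP1, FN1 and POSTN, with -1.76 (SE 0.149, adjusted p = 1.34e-08). CD44, the hyaluronan and SPP1 receptor, was also lower, with a difference of -1.16 (SE 0.0444, adjusted p = 1.75e-13). LRP1, a scavenger receptor that takes up thrombospondins, was higher, with 13.6 to 19.1 CPM in SPARK-ON libraries and 2.5 to 4.93 CPM in control libraries, a difference of 2.19 (SE 0.149, adjusted p = 6.47e-10).

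Among 19 genes of enzymes and partners that modify matricellular proteins, 18 were tested, with 5 higher, 6 lower and 7 that did not pass (median 0.025), a share near the 54.1% of all genes. Of 14 that did not owe their place to 1 line alone, 3 were higher and 5 lower. TGM2, a transglutaminase that crosslinks FN1 and SPP1, was at 29.1 to 43.2 CPM in SPARK-ON libraries and 2.82 to 5.43 CPM in control libraries, a difference of 3.06 (SE 0.108, adjusted p = 6.37e-14). LOX, the collagen crosslinking enzyme, differed by -2.35 (SE 0.104, adjusted p = 1.53e-12), and ADAMTS15, a protease that cleaves versican, by -2.78 (SE 0.158, adjusted p = 5.3e-11). MMP2, a gelatinase, was higher by 0.87 (SE 0.063, adjusted p = 1.45e-09). With scaling by library size 8 of these 18 were higher and 6 lower.

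In the TGF-beta pathway, which is known to induce TGFBI, POSTN, FN1 and others of these genes, all 19 listed genes were tested. Of these 5 were higher in SPARK-ON cells, 10 lower and 4 did not pass (median -0.18), beside 27.7% and 26.4% of all genes, and all 19 passed the filter through both lines. With scaling by library size 5 were higher, 8 lower and 6 did not pass. LTBP1, which holds latent TGF-beta in the matrix, was at 12.1 to 15.2 CPM in SPARK-ON libraries and 60.8 to 81.4 CPM in control libraries, a difference of -2.42 (SE 0.085, adjusted p = 5.51e-14). The co-receptor genes ENG and TGFBR3 were higher, by 3.89 (SE 0.211, adjusted p = 2.66e-11) and 2.04 (SE 0.152, adjusted p = 2.24e-09), and so was LTBP2, by 2.44 (SE 0.189, adjusted p = 3.92e-09). ENG was low in control libraries, at 0.217 to 0.85 CPM against 7.5 to 9.97 CPM in SPARK-ON libraries. Only 3 control libraries reached the level of the filter for ENG. The signal carriers SMAD2, SMAD3 and SMAD4 were lower, with differences of -1.40, -0.40 and -0.91. Without control DMSO replicate 1 and SPARK-ON lenalidomide replicate 3, the counts of these 4 lists stayed the same except that 7 genes of enzymes and partners were lower.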

How the data were processed

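PolyA RNA of SH-EP cells was sequenced, and the authors deposited raw, whole-number counts for each gene. Per the submitters' processing notes, FastQC, fastp, HTSeq, edgeR and hg38 were named. Their versions, and the aligner, annotation and strand setting, are not given in the sources used here. Of the table's columns 11 were matched to samples by their labels. Another 3 could not be matched and were not used, so the planned comparison with baseline cells was not made.

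The analysis used edgeR 4.0.16 in R 4.3.3: filterByExpr (minimum count 10), TMM scaling, a layout of 4 groups (7 residual degrees of freedom) by glmQLFit, and a two-sided glmQLFTest, adjusted by Benjamini and Hochberg's method over 16056 genes, with a threshold of 0.05. The main test averages the difference between lines over both treatments. CPM are relative to the TMM-scaled library size. Intervals of differences are 95% and use the fit's SE. Gene symbols came from a table of gene names. Positions and exon lengths came from GENCODE 29 (GRCh38), matched without the version of the identifier. An exon length joins the exons of all transcripts of a gene, with overlapping bases counted once. In simulated counts in the same layout, this test recovered 76% of differences of 0.5 and 92% of differences of 1 on the log2 scale. It made 8 false calls of 190 over 16056 genes. The simulated spread was the same for every gene and in both lines. Far fewer genes differed there than the 54.1% that passed in the data, so these rates do not carry over to the data.

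The members, lists and tests were chosen with earlier results of these data known. Named genes are the 10 members and, of each other list, up to 4 passing genes, those with the widest difference whose mean reached 5 CPM and whose lines did not overlap, and the 3 genes most like each of POSTN, SPP1 and THBS1. The text picks from these, and SMAD2, SMAD3 and SMAD4 fall outside the rule and were named after their values were seen. Alternatives were RLE and library size scaling, other filters, DESeq2 1.42.0, limma-voom 3.58.1 with a variance for each line, a replicate block, only the groups compared, and omission of each library. Figures were drawn with matplotlib 3.10.9. Replicates carry numbers only, and the labels name no separate cultures. The p-values therefore reflect the spread among these samples only, and that spread may be technical.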

Additional observations from a re-analysis of the deposited data

How the results depend on the processing

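Across all alternatives the number of genes past the threshold stayed within 1.5 times its value. FBLN1, SPP1, TGFBI, FN1, VCAN, TNC and SPARC kept their direction and call in the average, in DMSO and with lenalidomide. POSTN did too, but its entry through control cells alone favours that call. On omission of each library, between 7951 and 9106 genes passed in the average. Counted with POSTN, 8 to 10 of the 10 members passed in the average, and 8 to 9 members in DMSO and with lenalidomide. The changes were in THBS1 and THBS2. Over these omissions the THBS1 difference in DMSO ranged from -0.066 to 0.15 and the THBS2 difference with lenalidomide from -0.27 to 0.018. The THBS1 difference in DMSO reversed to -0.066 without control DMSO replicate 1, and to -0.066 without this library and SPARK-ON lenalidomide replicate 3, and the THBS2 difference with lenalidomide reversed to 0.018 without control lenalidomide replicate 1. None of these was past the threshold, before or after. The THBS1 difference with lenalidomide lost its call without SPARK-ON lenalidomide replicate 1 or 2 or control lenalidomide replicate 2, and the THBS2 difference in DMSO without control DMSO replicate 2 (adjusted p = 0.061). With library size scaling the median over all genes was 0.115, and THBS2 was at -0.14 (adjusted p = 0.161) in the average and -0.27 (0.0636) in DMSO. Correlations of deviations between libraries of different groups were -0.555 to 0.134 for the same number and -0.316 to 0.555 for unlike numbers. The 2 control lenalidomide libraries mirror each other, with -0.555 and 0.555 against control DMSO replicate 1. These values therefore cannot settle whether the numbers pair the samples. With a replicate block, 8126 genes passed in the average, and THBS1 had adjusted p = 0.0644 in the average and 0.0561 with lenalidomide. The cause of these losses was not tested. POSTN in SPARK-ON cells is limited by depth.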

Other observations

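Similarity to POSTN, SPP1 and THBS1 was measured as Pearson's r of log2 CPM over the 11 libraries, after the mean of each line had been subtracted, among genes with a mean of at least 5 CPM. The genes most like THBS1 were FOSL2 (r = 0.97), PDE1C (r = 0.961) and STRA6 (r = 0.946). Those most like SPP1 were KLF11 (r = 0.966), MAMDC2 (r = 0.957) and NR2C1 (r = 0.947), and those most like POSTN were GCNT1 (r = 0.918), TFPI (r = 0.902) and EPHB3 (r = 0.892). All these genes share the libraries, their treatments and their scaling, and the values describe these libraries only. Treatment was not subtracted, so r includes the lenalidomide response, which was known when the genes were listed. SPARK-ON libraries held 0 to 4 POSTN counts each, so they add little to the values for POSTN beyond counting error.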
